A study of Mus musculus with 12 samples.

Results

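The integrin genes of myeloid cells were followed in bone marrow-derived dendritic cells (BMDCs) with or without CTCF, before and after lipopolysaccharide (LPS). The 10 genes, Itgam, Itgax, Itgal, Itgae, Itga4, Itga5, Itgav, Itgb1, Itgb2 and Itgb7, were picked by symbol, which follows the Ensembl number in each gene name of the files. All 10 were present among the 55335 genes of each of 12 libraries, and all 10 were among the 14008 genes that passed the filter on low counts.

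Bone marrow came from C57BL/6 mice that carried CreER, a tamoxifen-activated Cre recombinase expressed from Rosa26, either alone (WT) or together with floxed alleles, CreER;CTCF fl/fl (KO). Cells were grown for 6 days in murine GM-CSF, a growth factor under which dendritic cells and macrophage-like cells arise together, so each library may hold a mixture. WT and KO cultures were unstimulated. WTL and KOL cultures were the same genotypes after LPS at 100 ng/ml for 3 hours, and each of the 4 groups had 3 biological replicates. The study used adult mice of both sexes and does not state the sex behind each library. CreER was thus present in all 4 groups. The drug 4-OH tamoxifen was given once, at the start of culture, to delete Ctcf. The descriptions do not settle whether WT cultures received it too, and if they did not, an effect of the drug cannot be told apart from loss of CTCF. The study's methods describe selection of the cells with microbeads against CD11c, which is the protein encoded by Itgax, so a member of the set also served to pick the cells.

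Integrins are surface receptors made of 1 alpha and 1 beta chain, through which cells hold on to matrix proteins and to counter-receptors on other cells. In leukocytes the chain encoded by Itgb2 (CD18) pairs with the products of Itgal (CD11a, giving LFA-1), Itgam (CD11b, giving Mac-1, the complement receptor CR3) and Itgax (CD11c, giving CR4). Itgb7 pairs with Itgae (CD103) or Itga4, Itgb1 pairs with Itga4 (VLA-4), Itga5 (the fibronectin receptor) and others, and Itgav pairs with several beta chains to bind vitronectin and latent TGF-beta.

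Total expected counts per library, the reads that RSEM assigned to genes, were 13058792 to 14518230 in WT, 12769773 to 16586334 in WTL, 13544715 to 14584606 in KO and 14659973 to 15957342 in KOL. Levels are given below as normalized counts, which are expected counts divided by the effective library size (total count times TMM factor) and multiplied by the mean effective size of the 12 libraries. Changes are log2 fold changes with their SE from the quasi-likelihood test of edgeR, adjusted by Benjamini-Hochberg over all 14008 genes, with n = 3 libraries per group. A gene was called at an adjusted p under 0.05 and a fold above 2 for WTL against WT and KOL against KO, above 1.3 for KO against WT and above 1.5 for KOL against WTL. The difference between the LPS responses of KO and WT, called the interaction, had no fold threshold.

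Ctcf itself was read first. Its normalized counts were 1051, 987 and 975 in WT, 570, 562 and 516 in KO, 886, 817 and 745 in WTL and 563, 530 and 526 in KOL. The 6 CTCF-deficient libraries all lay below the 6 control libraries. The change was -0.87 (SE 0.08, adjusted p = 3.94e-07) in KO against WT and -0.59 (SE 0.08, adjusted p = 2.39e-05) in KOL against WTL by edgeR's quasi-likelihood test. The share of cells that kept an intact allele was not measured. Besides RNA, the paper reports efficient depletion of the CTCF protein. Its ChIP-seq found CTCF binding gone or strongly reduced across its sites in CTCF-deficient cells, with and without LPS.

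Libraries WTL 1 and KOL 2 stood apart from the other replicates of their groups in the length of the transcripts they sampled. The mean transcript length, weighted by counts, was 2732 bases in WTL 1 against 2558 and 2544 in the other WTL libraries, and 2643 in KOL 2 against 2502 and 2457 in the other KOL libraries. WT libraries spanned 2627 to 2674 bases and KO libraries 2683 to 2698. Over the 3502 genes with the longest transcripts, the median log2 difference from the other replicates was 0.14 in WTL 1 and 0.19 in KOL 2, and over the 3502 genes with the shortest it was -0.16 in both. Several integrin genes deviated further in these libraries, with Itgam at 0.60 in WTL 1 and 0.53 in KOL 2, Itga4 at 0.58 and 0.73, Itgal at 0.37 and 0.63, and Itgb2 at 0.29 and 0.47. WTL 2 held 4.65% of its counts in genes annotated as rRNA, against at most 0.636% in any other library. Mitochondrial genes held 2.67 to 3.13% of counts in WT, 3.55 to 3.62% in KO, 2.23 to 3.18% in WTL and 2.80 to 3.99% in KOL, with WTL 1 and KOL 2 the highest of their groups. Replicates differed most in the LPS groups. The chi-square per gene between 2 replicates, given their depth, was 1.69 to 1.91 in KO and 3.33 to 4.76 in WT. It was 8.84 to 31.6 in KOL and 31.3 to 86.6 in WTL. The edgeR fit shares its estimate of spread over all groups, so the SE of KO against WT also holds scatter of the LPS libraries. The part of these library properties in the results was not tested beyond refits. Those that left out each library in turn were planned. Those without both WTL 1 and KOL 2 and with a correction for transcript length were chosen after seeing the data.

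The scale of the libraries also differed between conditions. TMM factors were 1.2 to 1.22 in WT and 1.12 to 1.13 in KO but 0.82 to 0.88 in WTL and 0.86 to 0.88 in KOL. On the TPM scale, which divides by length and fixes each library's sum, the median of all genes tested moved by -0.44 in WTL against WT, -0.38 in KOL against KO and -0.10 in KO against WT (limma on log2 of TPM + 1). With TMM the same medians were -0.02, -0.02 and -0.01. TMM scales each library to a reference library, which edgeR chose as KO 3 and which became KOL 1 whenever a WT library was left out. With all 12 libraries and KOL 1 as the reference, the medians were -0.092 in WTL against WT, -0.047 in KO against WT and 0.052 for the interaction. A refit without a WT library therefore changed the scaling as well as the libraries, and it was repeated with KO 3 kept as the reference, an alternative added after seeing the data.

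All 7 dendritic cell markers were tested, and 3 of them, Cd74, H2-Aa and H2-Ab1, carried most of the sum, while Flt3 (mean 0.843 TPM) and Cd209a (1.96 TPM) were low in KO. Their summed TPM was 10537, 10724 and 10142 in WT, 6601, 6895 and 6635 in KO, 9933, 11963 and 13827 in WTL and 14782, 10051 and 11851 in KOL. KO libraries thus had the lowest sums, and 4 of the 7 genes were downregulated in KO against WT, where 17.2% of all genes were downregulated and 17.3% upregulated. In KOL against WTL 3 of the 7, Flt3, Ciita and Cd209a, were downregulated (12.5% of all genes), in KOL against KO 6 were upregulated (15.1%), and 3 had a positive interaction (8.7%). The 8 macrophage or monocyte markers summed to 767, 829 and 771 TPM in WT and 974, 978 and 997 in KO, with Csf1r the most abundant in both (means of 351 and 511 TPM), 3 upregulated and 3 downregulated in KO against WT (17.3% and 17.2% of all genes). Cd14 was 194 TPM in WT and 115 in KO. The 9 markers of neutrophils and their precursors summed to 398, 375 and 392 TPM in WT and 209, 226 and 194 in KO, mostly from S100a8, and of the 7 that were tested 5 were downregulated (17.2% of all genes) and 1 was upregulated (17.3%). In the LPS groups the macrophage or monocyte sums were 903, 765 and 826 TPM in WTL and 893, 1030 and 941 in KOL, and the neutrophil sums were 432, 346 and 440 in WTL and 287, 337 and 325 in KOL. Markers of mature dendritic cells (4 genes, mostly Ccl22) summed to 1844, 1761 and 1696 TPM in WT, 1133, 1193 and 1063 in KO, 8211, 7076 and 9036 in WTL and 9175, 7761 and 7808 in KOL. Their sums were thus high in both LPS groups. In KO against WT 3 of the 4 were downregulated and Fscn1 was upregulated, from a mean of 134.1 TPM to 229.8. Among 3 eosinophil markers, Siglecf led a sum of 12.6 to 15 TPM in WT and 19.7 to 24.4 in KO, and among 4 platelet markers Pf4 led a sum of 179 to 189 TPM in WT and 70.8 to 81 in KO. The 3 plasmacytoid dendritic cell markers, mostly Tcf4, summed to 7.65 to 9.28 TPM in WT, 6.83 to 7.8 in KO, 29.5 to 37.7 in WTL and 18.5 to 23.9 in KOL. Under LPS the eosinophil sums were 5.42 to 10.9 TPM in WTL and 7.52 to 11.1 in KOL, and the platelet sums 136 to 163 in WTL and 149 to 213 in KOL. Markers of T cells, B cells, erythroid cells and stromal or endothelial cells summed to at most 2.44 TPM in any library, those of NK cells to at most 3.34 and those of mast cells or basophils to at most 4.3, with Tpsb2 at 0 in all 12 libraries. Whether these differences in marker RNA reflect cell composition was not tested, nor was their part in the integrin results. By flow cytometry, the paper reports a comparable percentage of dendritic cells, gated on the products of Itgam and Itgax, in WT and CTCF-deficient cultures. In bulk RNA, fewer cells that express a gene and less of its RNA per cell cannot be told apart.

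Between genes, levels are compared as TPM. In WT the order of the mean TPM was Itgb2 (743), Itgax (366), Itgam (209), Itgb1 (140), Itgal (122.6), Itga5 (65.2), Itgb7 (49.5), Itga4 (40.1), Itgav (17.5) and Itgae (2.88), and no neighbours in that order overlapped in their 3 libraries. The beta2 chain that leukocyte integrins share was thus the most abundant integrin RNA of the 10, at rank 201 among all genes, and Itgae was the scarcest, at rank 10625. In KO the first places were closer, with Itgb2 at a mean TPM of 767 and Itgax at 606, while Itga5, Itga4 and Itgb7 overlapped as neighbours. Under LPS, Itga5 moved up to place 3 in WTL at 169 TPM, where Itgb1 and Itgam, Itgam and Itgal, and Itgav and Itga4 overlapped. In KOL the libraries of Itgb2 (323 TPM) and Itgax (251 TPM) overlapped, as did those of Itgb1 and Itga5, and each neighbouring pair from Itgam through Itgal, Itga4 and Itgav to Itgb7. Itgae was last in all 4 groups.

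**Figure D1:**
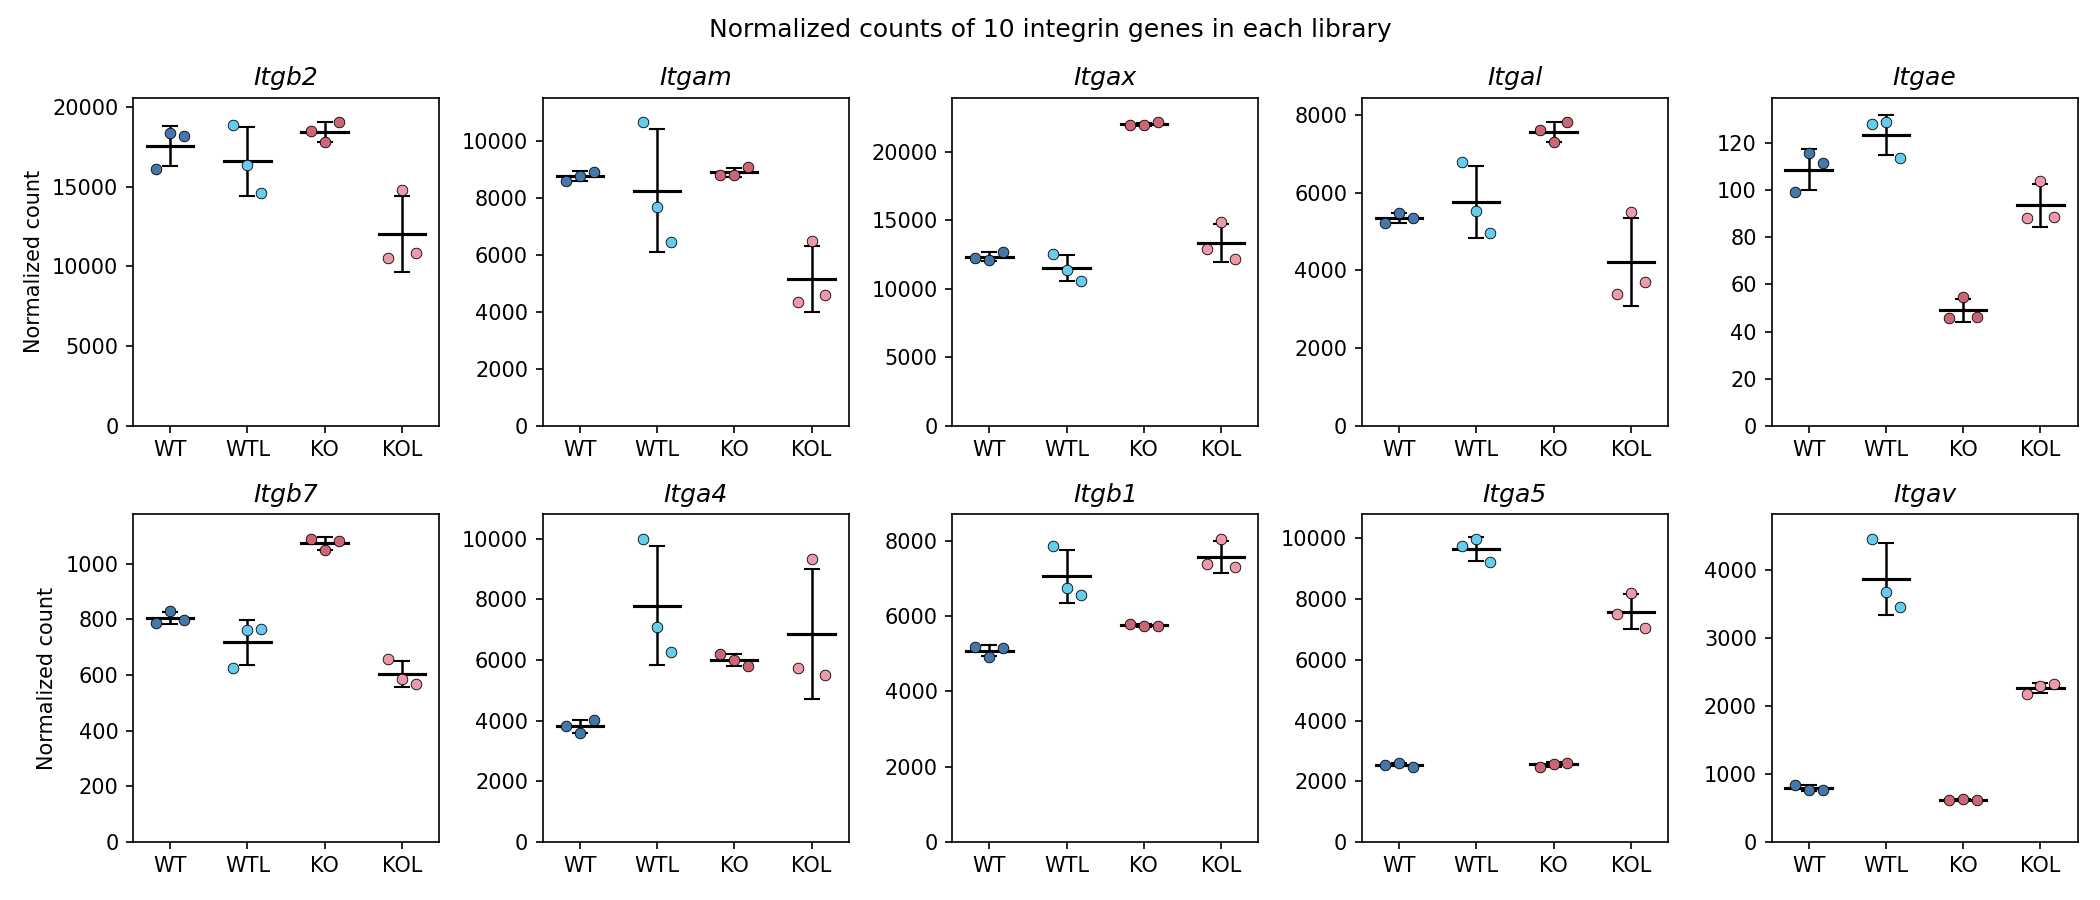
Normalized counts (linear axis from 0) of the 10 integrin genes in each of 3 libraries of WT, WTL, KO and KOL, points in replicate order, with the mean (horizontal line) and SD (vertical bar). Itgax in KO (21952 to 22158) lies above its other groups, Itga5 and Itgav are high in both LPS groups, and WTL 1 and KOL 2 are the highest points of their groups for Itgam, Itgal, Itga4 and Itgb2.

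Itgb2 (ENSMUSG00000000290.13, mm10 chromosome 10 from 77530252 to 77565708) encodes the beta2 chain. Its normalized counts were 16147, 18372 and 18167 in WT, 18482, 17798 and 19054 in KO, 18897, 16348 and 14584 in WTL and 10552, 14801 and 10826 in KOL. WT, KO and WTL libraries overlapped, while every KOL library lay below every KO library, and KOL 2 was the highest of its group. The KO against WT change was 0.07 (SE 0.12, adjusted p = 0.675), and KOL against KO gave -0.61 (SE 0.12, adjusted p = 4.93e-04), a fold of 1.53 that is under the threshold of 2. Between the LPS groups Itgb2 was lower in KOL at -0.46 (SE 0.12, adjusted p = 0.00688), also under the fold threshold, and WTL and KOL libraries overlapped. Without WTL 1 and KOL 2 that difference was -0.53 (adjusted p = 3.72e-06 in edgeR's test), and without KOL 2 alone it was -0.636, past the fold of 1.5.

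Itgam (ENSMUSG00000030786.18, chromosome 7 from 128062640 to 128118491) encodes CD11b, which with CD18 binds complement iC3b, fibrinogen and ICAM-1. Normalized counts of Itgam were 8578, 8773 and 8909 in WT, 8789, 8802 and 9068 in KO, 10641, 7666 and 6428 in WTL and 4350, 6476 and 4596 in KOL. WT and KO libraries overlapped, WTL spread on both sides of them with WTL 1 on top, and all KOL libraries lay below all KO libraries. The KO against WT change was 0.02 (SE 0.16, adjusted p = 0.931), a value whose sign turned to -0.02 with the correction for transcript length and to -0.011 with KOL 1 as the TMM reference. In KOL, Itgam was downregulated against WTL at -0.68 (SE 0.16, adjusted p = 0.00337), and it was -0.79 (SE 0.16, adjusted p = 6.08e-04) against KO, where the fold of 1.73 stayed under 2. The adjusted p of KOL against WTL lay between 2.25e-12 and 0.0339 over 11 other settings, though KOL 2 lay just above WTL 3. The fold fell under 1.5, and the call was lost, without WTL 1 (-0.455) and without KOL 1 (-0.572).

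For Itgam the LPS comparisons moved with the 2 libraries of longer transcripts. WTL against WT gave -0.09 (SE 0.16, adjusted p = 0.659) with all libraries and -0.31 (adjusted p = 2.03e-04 in edgeR's test) without WTL 1 and KOL 2. KOL against KO then reached -0.99, against -0.66 with the length correction. On the TPM scale, WTL against WT was -0.74, which is -0.31 relative to the median of all genes.

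Itgax (ENSMUSG00000030789.9, chromosome 7 from 128129547 to 128150657) lies next to Itgam and encodes CD11c, the surface marker most used for dendritic cells. Its normalized counts were 12227, 12109 and 12709 in WT, 21952, 21960 and 22158 in KO, 12503, 11395 and 10591 in WTL and 12935, 14857 and 12163 in KOL. The KO libraries stood far above the other 9 and within a narrow range, whereas the WT, WTL and KOL libraries lay close to each other. Itgax was upregulated in KO at 0.83 (SE 0.08, adjusted p = 1.29e-06), a fold of 1.78 that was seen in 3 of 3 libraries and kept its call in all 10 other settings. KOL against KO was -0.73 (SE 0.08, adjusted p = 2.25e-06), a fold of 1.65 that is under the threshold of 2. KOL against WTL was 0.21 (SE 0.08, adjusted p = 0.0468), with overlapping libraries, and that adjusted p rose to as much as 0.226 in other settings. The difference between the genotypes was smaller after LPS, with an interaction of -0.62 (SE 0.11, adjusted p = 0.00204).

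Itgal (ENSMUSG00000030830.18, chromosome 7 from 127296260 to 127335138) encodes CD11a, the LFA-1 chain that binds ICAM molecules during contact with T cells. Normalized counts of Itgal were 5210, 5469 and 5346 in WT, 7612, 7303 and 7818 in KO, 6788, 5542 and 4976 in WTL and 3405, 5508 and 3714 in KOL. All KO libraries lay above all WT libraries and above all KOL libraries, while WTL and KOL overlapped through KOL 2. The gene was upregulated in KO at 0.50 (SE 0.15, adjusted p = 0.0125). That call was lost without WT 1 (adjusted p = 0.0606) and without WT 3 (adjusted p = 0.0503), where the TMM reference changed too, but not with the reference kept at KO 3 (adjusted p = 0.0463 and 0.0396). It was also lost on the TPM scale (adjusted p = 0.0775 in limma). The adjusted p of KO against WT was under 0.05 in 8 of 10 other settings, with a range of 7.31e-10 to 0.0811 over all 10. In KOL the gene was lower than in KO at -0.85 (SE 0.15, adjusted p = 1.59e-04) and lower than in WTL at -0.45 (SE 0.15, adjusted p = 0.0222), both under their fold thresholds. Without WTL 1 and KOL 2 the difference between KOL and KO was -1.09, past the fold of 2. Without KOL 2 alone it was -1.092, and KOL against WTL was -0.696, past the fold of 1.5. The adjusted p of KOL against WTL rose above 0.05 without WTL 1, KOL 1 or KOL 3 (at most 0.107, with changes of -0.321, -0.321 and -0.370) and with the 6 libraries alone (0.109).

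Under LPS alone, the WTL against WT changes of these beta2 genes had adjusted p above 0.05 in edgeR's test of all libraries, with Itgb2 at -0.08, Itgax at -0.10 and Itgal at 0.11. The direction for Itgal turned to -0.02 without WTL 1 and KOL 2 and to -0.45 on the TPM scale, and that for Itgb2 turned to 0.01 with the length correction. Without WTL 1 and KOL 2, Itgb2 was -0.18 (adjusted p = 0.0156 in edgeR's test) and Itgax -0.17 (adjusted p = 0.00773 in edgeR's test). On the TPM scale Itgb2 was -0.71 (adjusted p = 0.00324 in limma) and Itgax -0.72 (adjusted p = 6.99e-05 in limma), or -0.28 and -0.28 relative to the median of all genes.

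Since the beta2 alpha chains share a single partner, each was also expressed as a share of the summed TPM of Itgal, Itgam, Itgax and Itgad. This ratio within a library does not depend on scaling between libraries. Itgax made up 53.4, 51.8 and 52.1% in WT and 62.1, 62.1 and 60.8% in KO. In the LPS groups it made up 47.5, 51.7 and 53.6% in WTL and 67.3, 61.7 and 64.2% in KOL. CD11c RNA was thus a larger part of the pool in each CTCF-deficient library than in each control library of the same treatment. Itgam made up 29.5, 30.2 and 30% in WT and 21.5, 22.6 and 23.4% in KO, then 32.6, 27.6 and 25.5% in WTL and 17.8, 20.8 and 19.2% in KOL. Its share was lower in every CTCF-deficient library than in every control library of the same treatment.

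The TPM ratio of Itgam to Itgax was 0.553, 0.584 and 0.577 in WT, 0.346, 0.364 and 0.385 in KO, 0.686, 0.534 and 0.476 in WTL and 0.265, 0.337 and 0.3 in KOL. Ratios of normalized counts, which are not divided by length, overlapped between KO and KOL. In TPM, the groups of CTCF-deficient and control cells did not overlap in either treatment, and KOL lay below KO as well. The mean differences were -0.206 for KO against WT, -0.265 for KOL against WTL and -0.064 for KOL against KO, each with p = 0.1 in a two-sided exact permutation test, the smallest value that 3 against 3 libraries can give. Adjusted over the 20 comparisons of shares and ratios, that exact p was 0.167. For WTL against WT the ratio differed by -0.006 (exact permutation p = 1). Itgal held 15.8% of the pool on average in KO and 17.6% in WT, a difference of -1.76 percentage points (exact permutation p = 0.1), although its own counts were higher in KO. In WTL it held 20.4%, which is 2.85 points more than in WT (exact permutation p = 0.1). In KOL it held 16.2%, a difference of -4.19 points from WTL (exact permutation p = 0.1). When the shares were taken from normalized counts, not divided by length, those of Itgal overlapped between KO and WT. Itgad was at most 0.107% on average in any group.

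**Figure D2:**
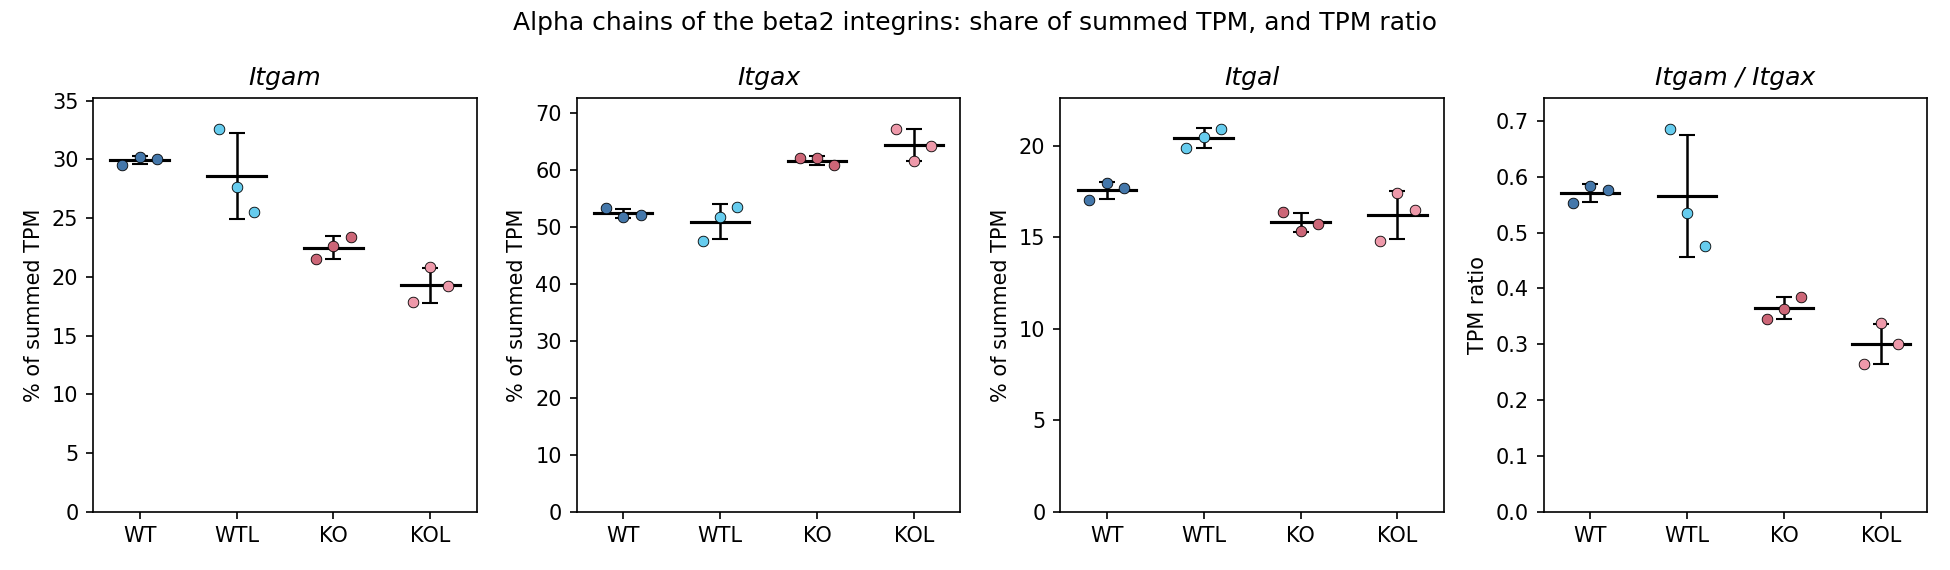
Share (% of summed TPM of Itgal, Itgam, Itgax and Itgad) of 3 alpha chains and the TPM ratio of Itgam to Itgax, in each of 3 libraries of WT, WTL, KO and KOL (points), with mean (horizontal line) and SD (vertical bar), axes from 0. The Itgax share is higher, and the Itgam share and the ratio lower, in KO than in WT and in KOL than in WTL without overlap.

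Itgae (ENSMUSG00000005947.11, chromosome 11 from 73090583 to 73147446) encodes CD103, which pairs with beta7, binds E-cadherin and marks a subset of conventional dendritic cells. It was weakly expressed, with normalized counts of 99.2, 116 and 111 in WT, 45.8, 54.7 and 46.3 in KO, 128, 129 and 114 in WTL and 88.2, 104 and 88.6 in KOL. The 3 KO libraries were the lowest of the 12, and KOL libraries lay between KO and WTL. Itgae was downregulated in KO at -1.15 (SE 0.14, adjusted p = 7.86e-06), a fold of 2.22. Haspin, a gene on the opposite strand inside Itgae, had 47 to 206 expected counts where Itgae had 50 to 138. Since the strand setting of the counting is not known, the split of reads between them is uncertain.

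The LPS response of Itgae differed between the genotypes. KOL against KO was 0.93 (SE 0.14, adjusted p = 3.91e-05), a fold of 1.91 just under the threshold of 2 (1.018, past it, without KO 2, and 1.075 with the length correction), whereas WTL against WT was 0.18 (SE 0.12, adjusted p = 0.226). The interaction was 0.75 (SE 0.19, adjusted p = 0.0134), the positive one among the 10 genes. On the TPM scale the WTL against WT value turned to -0.25, or 0.19 relative to the median of all genes. KOL against KO was 0.28 on that scale (adjusted p = 0.0252 in limma), or 0.66 relative to the median. After LPS the deficit of CTCF-deficient cells was -0.40 (SE 0.13, adjusted p = 0.0215), under the fold threshold. Its adjusted p was above 0.05 without WTL 2, KOL 1 or KOL 3 (at most 0.0698, with changes of -0.37, -0.36 and -0.36) and in 4 of 11 other settings (at most 0.0879), DESeq2 among them.

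Itgb7 (ENSMUSG00000001281.10, chromosome 15 from 102215995 to 102231944, minus strand) encodes the beta7 chain of the gut-homing integrin and of the CD103 integrin. Normalized counts of Itgb7 were 786, 829 and 798 in WT, 1090, 1047 and 1082 in KO, 624, 762 and 766 in WTL and 656, 585 and 568 in KOL. The KO libraries were the highest of all 12, above every WT library, and the KOL libraries were the lowest together with WTL 1. Itgb7 was upregulated in KO at 0.42 (SE 0.08, adjusted p = 9.01e-04), just past the 1.3-fold threshold at a fold of 1.33. The fold was 1.286 without WT 1 and 1.298 without WT 3, under the threshold, while with the TMM reference kept the changes were 0.399 and 0.408, both past it. On the TPM scale the change was 0.22 and the call was lost (adjusted p = 0.265 in limma). KOL against KO was -0.83 (SE 0.08, adjusted p = 7.79e-07), against -0.16 (SE 0.08, adjusted p = 0.109) for WTL against WT, and the interaction was -0.67 (SE 0.12, adjusted p = 0.00162). With KOL 1 as the TMM reference, WTL against WT was -0.24 (adjusted p = 0.0247 in edgeR's test). On the TPM scale it was -0.47 (adjusted p = 0.0122 in limma), or -0.03 relative to the median of all genes. The interaction was -0.52 on that scale and lost its call (adjusted p = 0.127 in limma). The 2 chains of the CD103 integrin thus moved in opposite directions in KO.

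Itga4 (ENSMUSG00000027009.18, chromosome 2 from 79255426 to 79333123) encodes the alpha chain that binds VCAM-1 and fibronectin. Normalized counts of Itga4 were 3836, 3580 and 4010 in WT, 6213, 6000 and 5799 in KO, 10007, 7097 and 6279 in WTL and 5742, 9322 and 5501 in KOL. All WT libraries lay below all others, and WTL 1 and KOL 2 were the highest of the 12. Itga4 was upregulated in KO at 0.66 (SE 0.18, adjusted p = 0.00997) and in WTL at 1.03 (SE 0.19, adjusted p = 2.47e-04) against the same WT libraries. The KO call was lost without WT 2 (adjusted p = 0.0535), though not with the TMM reference kept (adjusted p = 0.0437). The adjusted p of KO against WT was under 0.05 in 8 of 10 other settings, with a range of 5.51e-12 to 0.0587 over all 10. The WTL call lies at the 2-fold threshold and was lost, by fold, without WT 1 (0.960), WT 2 (0.914), WT 3 (0.997) or WTL 1 (0.810). With the reference kept it was 1.035, 0.987 and 1.068 without WT 1, WT 2 and WT 3, and with all libraries and KOL 1 as the reference it was 0.960. On the TPM scale both adjusted p exceeded 0.05, at 0.0576 and 0.0583 in limma. The changes were then 0.54 in KO and 0.47 in WTL, or 0.65 and 0.91 relative to the median of all genes. Without WTL 1 and KOL 2, WTL against WT was 0.81 (adjusted p = 7.40e-10 in edgeR's test), under the 2-fold threshold.

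In CTCF-deficient cells the LPS response of Itga4 was 0.19 (SE 0.18, adjusted p = 0.372), with KO and KOL libraries overlapping, a value whose direction turned to -0.10 without WTL 1 and KOL 2 and to -0.30 on the TPM scale. With the length correction it was 0.44 (adjusted p = 0.00107 in edgeR's test). The interaction was -0.84 (SE 0.26, adjusted p = 0.0388). That adjusted p lost its call in 10 of 12 refits that left out a single library, of which the highest was 0.123 without WT 2.

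Itgb1 (ENSMUSG00000025809.15, chromosome 8 from 128685654 to 128733200) encodes the beta1 chain shared by VLA-4 and the fibronectin receptor. Its normalized counts ranged from 4919 to 5176 in WT, 5729 to 5789 in KO, 6558 to 7861 in WTL and 7295 to 8061 in KOL. Both LPS groups lay above both unstimulated groups, and all KO libraries lay above all WT libraries, with 0.18 (SE 0.07, adjusted p = 0.066) for KO against WT. That adjusted p was under 0.05 in 2 of 10 other settings, the length correction (adjusted p = 0.0336 in edgeR's test) and the 6 libraries alone. WTL against WT was 0.47 (SE 0.07, adjusted p = 7.60e-05) and KOL against KO was 0.40 (SE 0.07, adjusted p = 2.90e-04), both under 2-fold, and on the TPM scale their signs turned to -0.07 and -0.09, or 0.36 and 0.29 relative to the median of all genes. Itgb1 was the member whose interaction did not pass, at -0.08 (SE 0.11, adjusted p = 0.677).

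Itga5 (ENSMUSG00000000555.8, chromosome 15 from 103344286 to 103366763, minus strand) encodes the alpha chain of the fibronectin receptor. Normalized counts of Itga5 were 2547, 2586 and 2483 in WT, 2478, 2562 and 2615 in KO, 9751, 9997 and 9216 in WTL and 7498, 8205 and 7055 in KOL. WT and KO shared a range, WTL and KOL stood far above it, and every KOL library lay below every WTL library. LPS upregulated Itga5 at 1.93 (SE 0.07, adjusted p = 1.28e-11) in WT, a fold of 3.8, and at 1.57 (SE 0.07, adjusted p = 9.02e-11) in KO, a fold of 2.97. Both calls held in all 11 other settings. The KO against WT change was 0.01 (adjusted p = 0.946 in edgeR's test), with a sign that turned under several scalings, such as -0.09 on the TPM scale. KOL against WTL was -0.35 (SE 0.07, adjusted p = 7.76e-04), under the 1.5-fold threshold.

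Itgav (ENSMUSG00000027087.11, chromosome 2 from 83724397 to 83806916) encodes the alpha chain of the vitronectin receptors, which also activate latent TGF-beta. Normalized counts of Itgav were 846, 772 and 767 in WT, 614, 633 and 614 in KO, 4471, 3688 and 3459 in WTL and 2184, 2301 and 2329 in KOL. All 4 groups were separate, with KO lowest, then WT, KOL and WTL. Itgav had the largest LPS response of the 10 genes, at 2.28 (SE 0.09, adjusted p = 3.76e-11) in WT and 1.87 (SE 0.09, adjusted p = 2.90e-10) in KO, folds of 4.87 and 3.66. In KOL it was downregulated against WTL at -0.77 (SE 0.09, adjusted p = 6.16e-06), and KO against WT was -0.36 (SE 0.09, adjusted p = 0.00543), a fold of 1.28 just under the threshold of 1.3. That fold passed 1.3 without WT 2 (-0.415), without WT 3 (-0.416) and with KOL 1 as the TMM reference (-0.391), and also without WT 2 (-0.381) or WT 3 (-0.385) with the reference kept. It passed as well with the length correction (-0.399) and on the TPM scale (-0.65, adjusted p = 0.0135 in limma).

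For Itgav the TPM scale gave a different picture of KOL. Its TPM there was 48.5, 30.9 and 59.5, while normalized counts were nearly equal, since the mean transcript length that RSEM assigned to the gene was 3265, 5016 and 2729 bases in these libraries. The KOL against WTL call was lost on that scale (adjusted p = 0.0534 in limma), and the interaction of -0.41 (SE 0.13, adjusted p = 0.0376) turned to 0.17.

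The comparison of KO with WT asks what loss of CTCF does in unstimulated cells. Of the 10 integrin genes, 4 were upregulated (Itgax, Itga4, Itgal, Itgb7), where 17.3% of all genes tested were, and 1 was downregulated (Itgae), where 17.2% were. At any fold, 4 were higher (22.2% of all genes) and 2 lower (22.4%), with Itgav added. That 4 was 3 without WT 1, WT 2 or WT 3 (4 with the TMM reference kept), 1 on the TPM scale and 5 with the length correction or the 6 libraries alone. The median log2 fold change of the members was 0.12, against -0.01 over all genes tested. In the TPM fit, Itgax was the single gene of the 4 still called as upregulated, and Itgav joined Itgae among the downregulated. The count of 4 became 2 without WT 1 or WT 3 and 3 without WT 2 but stayed 4 in each with the TMM reference kept, and the count of 1 became 2 without WT 2 or WT 3 on either reference.

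LPS in control cells, WTL against WT, upregulated 3 of the 10 (Itgav, Itga5, Itga4), where 12.6% of all genes were upregulated, and downregulated 0, where 9.99% were. Counted at an unadjusted p under 0.05 in edgeR's test, 0 were lower as well, and DESeq2 also called 0, as did limma on TPM. At any fold, 4 were higher (30% of all genes) and 0 lower (30.2%), with Itgb1 added, but 2 were higher and 6 lower on the scale of TPM + 1. The lower count was 3 without WTL 1 and KOL 2, and 1 without WT 1 or with KOL 1 as the TMM reference. The count of 3 became 2, through Itga4, without WT 1, WT 2, WT 3 or WTL 1. The same held without WT 2 with the TMM reference kept, and with KOL 1 as the reference. It also held without both WTL 1 and KOL 2, and in limma on TPM + 1 or TPM + 0.1. The median of the members was 0.15 against -0.02 over all genes. WTL and KO share the WT libraries as their reference, so their values for a gene are not independent.

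LPS in CTCF-deficient cells, KOL against KO, upregulated 2 of the 10 (Itgav, Itga5), beside 15.1% of all genes, and downregulated 0, beside 13% of all genes. DESeq2 likewise called 0 as downregulated in KOL against KO, but 5 were lower at an unadjusted p under 0.05 in edgeR's test, and limma called 4 on TPM + 1 (Itgam, Itgax, Itgal and Itgb2) and 5 on TPM + 0.1. At any fold, 4 were higher (33.6% of all genes; 5 with the length correction, through Itga4), which adds Itgae and Itgb1, and 5 were lower (33.9%), namely Itgam, Itgax, Itgal, Itgb2 and Itgb7. These 5 genes were thus lower after LPS in CTCF-deficient cells, by folds of 1.53 to 1.8 with TMM, under the threshold of 2. For the 4 beta2 genes among them the folds on TPM + 1 were 2.42 to 2.93. Without WTL 1 and KOL 2, or without KOL 2 alone, Itgal passed the 2-fold threshold, and without KO 2 or with the length correction Itgae did. The median of the members was -0.21 against -0.02 over all genes, and on the TPM scale the beta2 genes were -0.89 (Itgb2), -0.89 (Itgax), -0.91 (Itgal) and -1.17 (Itgam) relative to the median of all genes. The mean transcript length that RSEM assigned to Itgam was 3695 to 3998 bases in KO and 4614 to 4657 in KOL. For Itgb2 it was 2361 to 2400 and 2491 to 2810, and for Itgax 3466 to 3492 and 3623 to 3743. For Itgal the groups overlapped, at 4515 to 4682 and 4405 to 4687. The part of length in these TPM values was not tested.

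Between the stimulated groups, KOL against WTL, 2 of the 10 were downregulated (Itgav, Itgam), where 12.5% of all genes were, and 0 were upregulated, where 12.5% were. DESeq2 and limma on TPM called 0 as upregulated too, and 1 was higher at an unadjusted p under 0.05. At any fold, 7 were lower (23.3% of all genes), with Itgb2, Itgal, Itgae, Itga5 and Itgb7 added, and 1 was higher (21.4%), namely Itgax. That 7 was 4 without KOL 3, 5 without WTL 2 or KOL 1, 6 without WTL 1 or WTL 3 and 3 with the 6 libraries alone, and the 1 was 0 without WTL 2, WTL 3, KOL 1 or KOL 2 and 2 without WTL 1. The median of the members was -0.37 against -0.03 over all genes. The count of 2 became 4 without KOL 2 and 1 without WTL 1 or without KOL 1.

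The interaction compares the 2 LPS responses directly. It was negative with an adjusted p under 0.05 for 8 of the 10 genes, beside 8.75% of all genes, and positive for 1, beside 8.7% of all genes. The largest was Itgal at -0.96 (SE 0.21, adjusted p = 0.00605), and Itgb2 at -0.53 (SE 0.17, adjusted p = 0.0476) and Itgam at -0.70 (SE 0.23, adjusted p = 0.0474) were near the threshold. The median of the members was -0.58 against -0.02 over all genes. Taking KOL 1 as the TMM reference, with all 12 libraries kept, made the negative count 3 in place of 8, since Itgam, Itga4, Itga5, Itgav and Itgb2 then had adjusted p of 0.0535 to 0.08. The count also moved in refits that left out a single library, with 3 without WT 1, without WT 2, without WT 3, without KO 2 or without KO 3, where the reference became KO 1. It was 4 without KO 1, KOL 1, KOL 3 or WTL 2, and 5 without WTL 1. With KO 3 kept as the reference it was 5, 4 and 3 without WT 1, WT 2 and WT 3. Itgax, Itgal and Itgb7 passed in each of the 12 refits that left out a single library and with either reference, and Itgae, the positive one, did as well. The TPM fit made 2 negative calls, and Itgb7 was then at an adjusted p of 0.127 in limma.

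**Figure D3:**
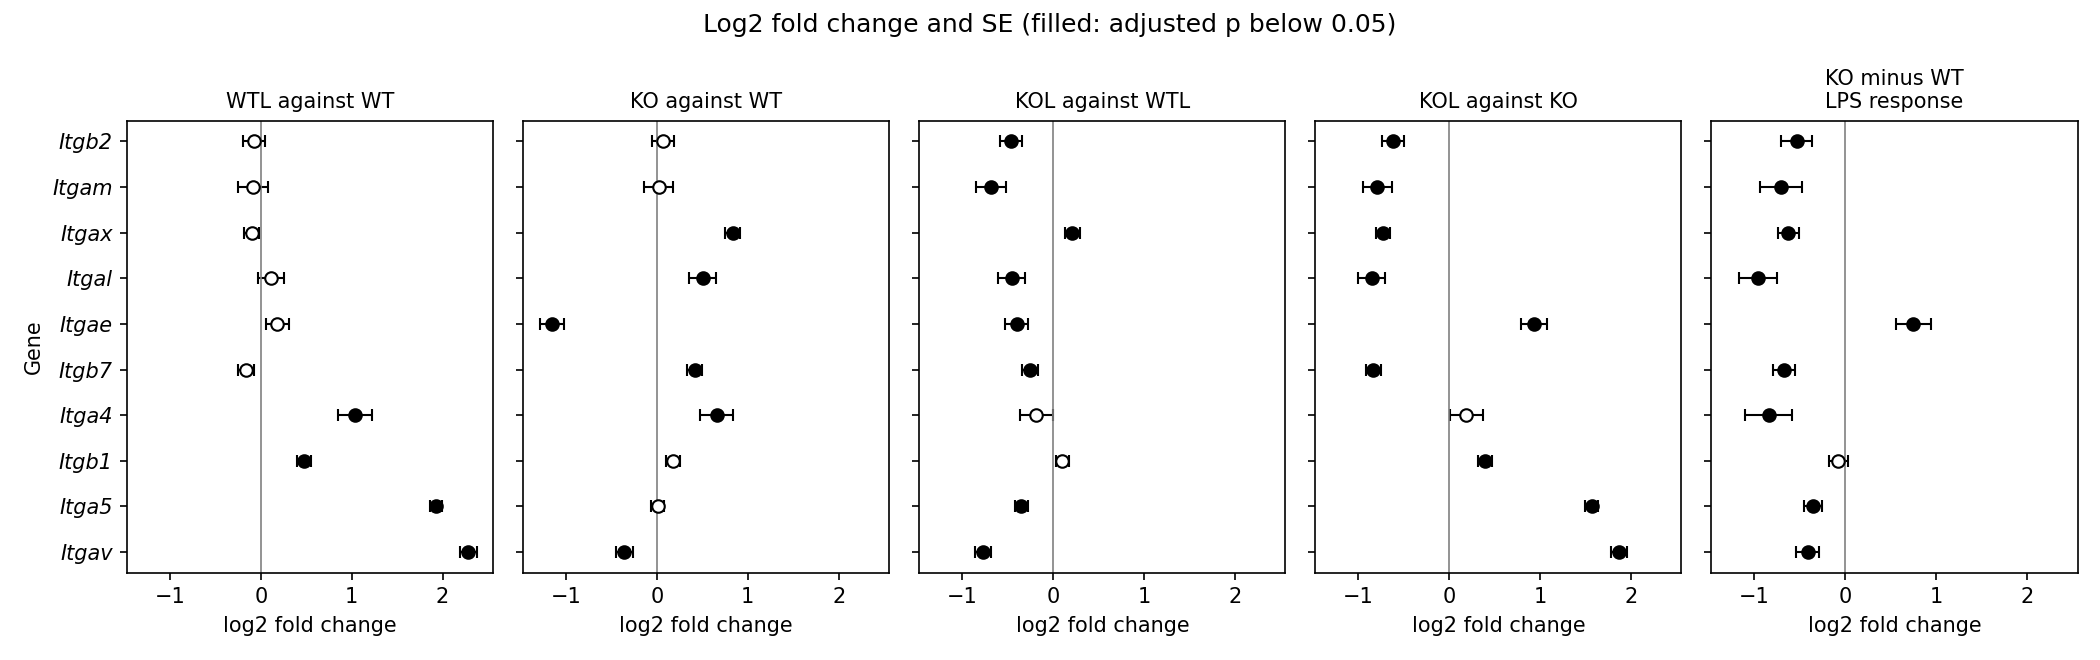
Log2 fold change (x axis) with SE (bar) of the 10 integrin genes (y axis) in 4 comparisons and in the interaction, from edgeR's quasi-likelihood fit of 12 libraries, filled where the adjusted p is under 0.05. Itgax is at 0.83 in KO against WT, Itga5 and Itgav exceed 1.5 in both LPS responses, and 8 of the 10 interaction values are filled and negative (3 with KOL 1 as the TMM reference), while on the TPM scale the sign turns for Itgal, Itgae and Itgb1 in WTL against WT, Itga5 in KO against WT, Itga4 and Itgb1 in KOL against KO and Itgav in the interaction.

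Among the other 16 integrin chains, 10 were tested. In KO against WT 2 were upregulated (Itgb8, Itgb3), beside 17.3% of all genes, and 4 downregulated (Itgb5, Itga1, Itga3, Itgad), beside 17.2%. Itgb5 and Itgb8 encode beta chains that pair with the product of Itgav. Itgb5 was -1.58 (SE 0.11, adjusted p = 3.66e-08) in KO against WT, while Itgb8 changed by 1.502 (SE 0.17, adjusted p = 6.66e-06) from a mean of 0.483 TPM in WT. LPS changed Itgb8 by 4.87 (SE 0.15, adjusted p = 2.02e-12) in WT and by 2.90 in KO, so that its mean was 9.63 TPM in WTL and 6.84 in KOL. Itgb8, like Itga5 and Itgav, thus increased with LPS in both genotypes. Itga1, a collagen receptor chain that pairs with beta1, was -1.20 in KO against WT.

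Of 15 genes for integrin ligands, 12 were tested. LPS in WT upregulated 3 (12.6% of all genes) and downregulated 0 (9.99%) of them in edgeR's test, with 0 lower by DESeq2 and 0 at an unadjusted p under 0.05, and among the upregulated were Vcam1, bound by the Itga4 product, at 2.60 and Icam1, bound by LFA-1 and Mac-1, at 1.82. In KO against WT 3 were upregulated (17.3% of all genes) and 5 downregulated (17.2%). The falls included Cdh1 (E-cadherin, the ligand of CD103) at -2.88 (SE 0.14, adjusted p = 8.40e-10), Thbs1 at -1.999, Spp1 (osteopontin) at -1.83 and Mfge8, which bridges dying cells to Itgav integrins, at -1.37. Itgae and its ligand Cdh1 were thus both lower in KO. In KOL against WTL 6 were downregulated and 0 upregulated in edgeR's test, each beside 12.5% of all genes, with 0 higher by DESeq2 and 2 at an unadjusted p under 0.05, and Icam1 was -1.08 (SE 0.08, adjusted p = 5.55e-08).

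Inside-out activators switch integrins to their active state. Of 12 inside-out activators, 10 were tested, and in WTL against WT 1 was upregulated (Rap1b, 1.39), beside 12.6% of all genes, and 1 downregulated (Rassf5, the Rap1 effector, -1.10), beside 9.99%. The downregulated count was 2 with KOL 1 as the TMM reference and without WT 2, WT 3 or WTL 2, and limma on TPM + 1 called 0 up and 3 down. In KO against WT 2 were upregulated (17.3% of all genes), including Fyb (0.69), and 1 was downregulated (17.2%), the talin gene Tln2 (-0.73). All 5 inhibitors of activation were tested. Dok1 was upregulated by LPS in WT at 1.49, and 0 of the 5 were called in KO against WT by edgeR or DESeq2, with 1 higher and 1 lower at an unadjusted p under 0.05 and 1 called as lower by limma on TPM, with KOL 1 as the TMM reference and without WT 1 or WT 3 (0 with the reference kept).

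Of 21 genes for signalling from bound integrins, 19 were tested, and 7 were upregulated (17.3% of all genes) and 1 downregulated (17.2%) in KO against WT. Ptk2, the focal adhesion kinase gene, had the largest change at 2.32 (SE 0.09, adjusted p = 7.62e-11), from a mean of 2.37 TPM in WT to 12.2 in KO, followed by Parvb (0.76), Src (0.71) and Zyx (0.64). Src at 2.73 and Lcp2 at 1.23 were among those upregulated by LPS in WT. The interaction was negative for 8 of the 19 (8.75% of all genes) and positive for 0 (8.7%) in edgeR's test, with 0 also by DESeq2 and at an unadjusted p under 0.05. The count of 8 was 5 with KOL 1 as the TMM reference, 5 on the TPM scale and 4 without WT 1, WT 2 or WT 3 (5, 6 and 5 with the reference kept). It was 5 without WTL 2, KO 1 or KO 3, 6 without KO 2, KOL 1 or KOL 3, 7 without WTL 1 or WTL 3 and 9 without KOL 2. With KOL 1 as the reference, the counts in KO against WT were 6 up and 2 down. The 5 membrane partners of integrins were all tested. Cd82 was upregulated by LPS in WT (1.24) and Cd81 was downregulated in KO (-0.99).

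Itgam and Itgax stand side by side on chromosome 7, with Itgad beyond them, and of these 3 genes Itgax was the one upregulated in KO. Within 250 kb of the start of either gene lay 38 other annotated genes, of which 15 were tested. In KO against WT 3 of them were upregulated (17.3% of all genes), Tgfb1i1 at 1.76, Vkorc1 at 0.51 and Kat8 at 0.39, and 2 were downregulated (17.2%), Itgad at -2.76 and Gm49368 at -0.998. Itgad had a mean of 19.9 normalized counts in WT and 2.81 in KO, and Tgfb1i1 6.33 and 21.9, so both values rest on few reads. Gm49368 overlaps Itgam on the same strand and had 25.4 to 119 expected counts beside 4046 to 10462 for Itgam, so its reads cannot be separated firmly from those of Itgam. In KOL against WTL 1 was upregulated (Tgfb1i1, 1.199) and 3 were downregulated (Gm49368, Armc5 and 9130023H24Rik), each beside 12.5% of all genes.

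**Figure D4:**
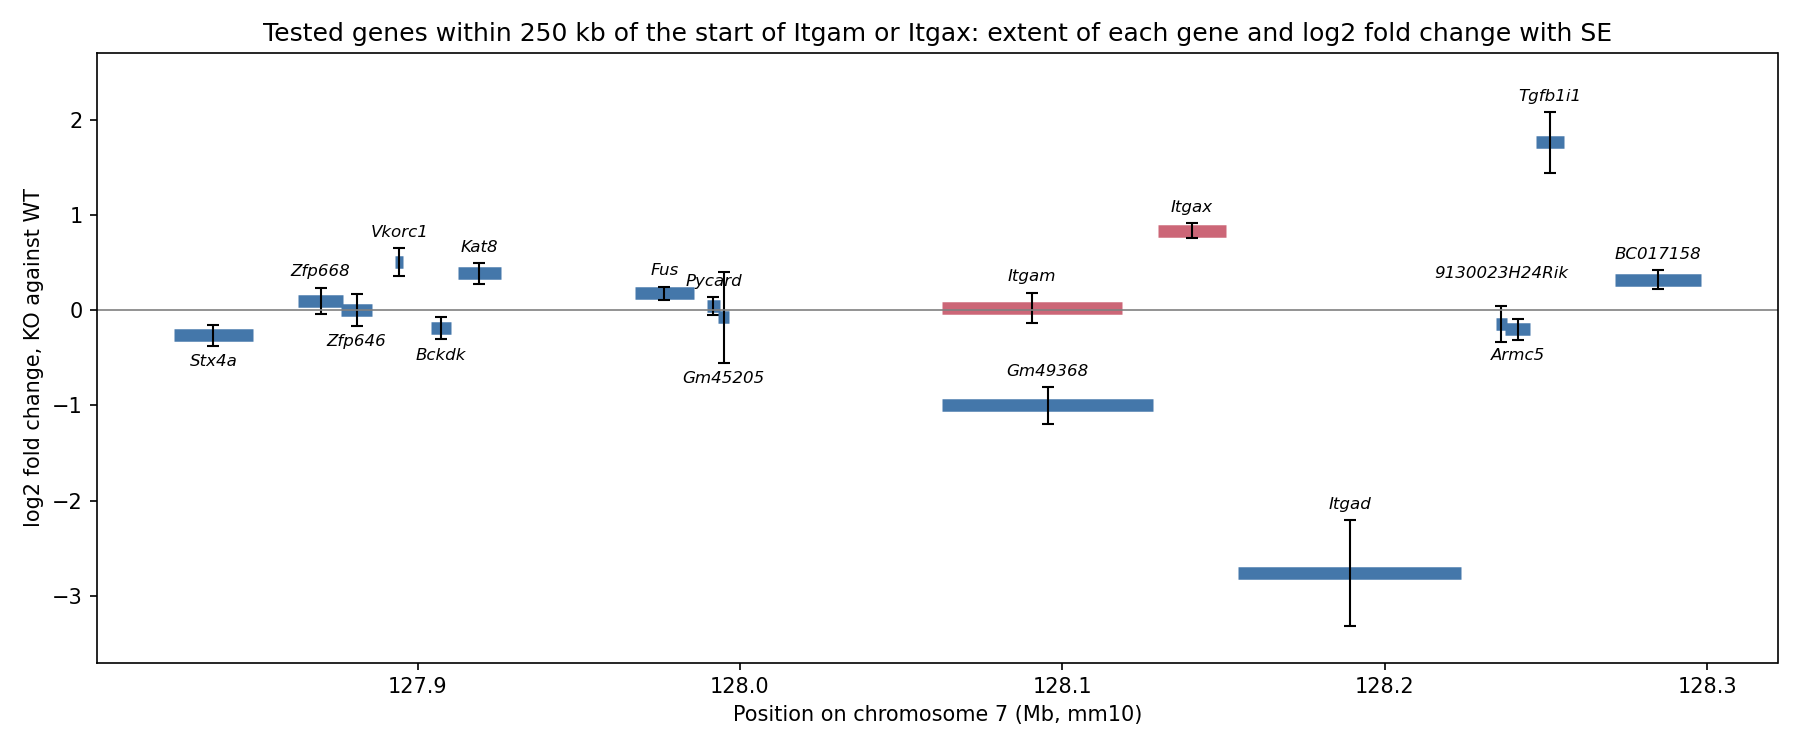
Tested genes within 250 kb of the start of Itgam or Itgax on chromosome 7 (x axis, position in Mb, mm10), each drawn over its annotated extent at its log2 fold change in KO against WT (y axis) with SE (bar), Itgam and Itgax in red. Itgax lies at 0.83, Itgam at 0.02 (-0.02 with the correction for transcript length), Tgfb1i1 at 1.76 and Itgad at -2.76.

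Sequences before the start of 7 of the 10 genes were present in the RefSeq promoter set (GRCm38.p6, the same build as mm10), and Itgal, Itgae and Itgb2 had no entry. The 150 bases upstream of the start were searched on both strands for GAGGAA (the core bound by PU.1), TGANTCA (AP-1), GGGNNTTTC (NF-kappaB-like) and TTCNNNGAA (STAT). Of 32851 promoters, 14.5% held GAGGAA, 4.24% TGANTCA, 2.28% GGGNNTTTC and 4.09% TTCNNNGAA in this window. GAGGAA was found upstream of Itgam, Itga5, Itgav and Itgb1, and TGANTCA upstream of Itgax. The upstream bases of the adjacent pair Itgam (chr7:128062490-128062639, plus strand) and Itgax (chr7:128129400-128129549, plus strand), which changed differently in KO, are shown 5′ to 3′ with matches in capitals. A match is a description of the letters only.
Itgam: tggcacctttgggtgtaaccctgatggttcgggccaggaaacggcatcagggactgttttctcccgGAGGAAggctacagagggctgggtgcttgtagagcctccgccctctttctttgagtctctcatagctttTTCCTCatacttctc
Itgax: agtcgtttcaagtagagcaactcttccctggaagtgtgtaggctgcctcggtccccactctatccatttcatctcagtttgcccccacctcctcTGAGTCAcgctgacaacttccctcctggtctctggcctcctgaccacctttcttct

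The next sequences belong to Itga5 (chr15:103366792-103366941, minus strand) and Itgav (chr2:83724247-83724396, plus strand), the genes with the largest LPS responses of the 10, again 5′ to 3′ from RefSeq with matches to GAGGAA or its reverse complement TTCCTC in capitals.
Itga5: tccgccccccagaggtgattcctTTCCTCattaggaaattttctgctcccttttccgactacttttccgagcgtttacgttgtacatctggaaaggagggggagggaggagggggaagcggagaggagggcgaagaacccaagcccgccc
Itgav: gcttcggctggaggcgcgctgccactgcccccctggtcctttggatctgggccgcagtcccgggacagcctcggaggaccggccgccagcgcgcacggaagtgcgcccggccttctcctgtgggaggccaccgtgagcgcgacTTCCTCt

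The widest ranges of group means among the 10 were those of Itgav (2.64 on the log2 scale), Itga5 (1.93) and Itgae (1.33). Among 9338 genes, those most like each in log2 level over the 12 libraries, by Pearson's r as a description, were Mmp13 (0.999), Gbp2 (0.997) and Rnf4 (0.997) for Itgav. For Itga5 they were Nlrc5 (0.999), Nfkbie (0.998) and Mafk (0.998), and for Itgae Agpat4 (0.980), Ifitm1 (0.972) and Rubcnl (0.970). The 12 libraries fall into 4 groups, so they are not 12 independent points.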

How the data were processed

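RNA was sequenced from 12 BMDC libraries, 3 in each of WT, WTL, KO and KOL. The authors aligned reads to mm10 with STAR (2.5.1 per the labels, another version in the paper) and quantified genes with RSEM, and the deposited values are estimated counts (RSEM expected count), TPM, FPKM and, per gene, the mean length and effective length of its transcripts in bases. Expected counts were rounded and tested with edgeR 4.0.16 (TMM, filterByExpr by group, quasi-likelihood test, Benjamini-Hochberg over all genes tested) in R 4.3.3, in one fit of 12 libraries with a common biological coefficient of variation of 0.0998. DESeq2 1.42.0 and limma 3.58.1 on log2 of TPM + 1 or TPM + 0.1 were alternatives. Other values were computed with Python 3.11.15, pandas 2.3.3, numpy 2.4.6 and scipy 1.17.1, and figures with matplotlib 3.10.9. Positions are from GENCODE M21, to which 54587 identifiers matched with their version and 55154 without. Sources differ on whether ribosomal RNA was depleted or poly(A) RNA selected, and the strand setting of RSEM is not stated. Shares of alpha chains were tested by exact permutation of 3 against 3 libraries. Besides the 10 members and Ctcf, from each of 6 pathway lists at most 4 genes per comparison were named, the largest called changes in KO against WT or WTL against WT with at least 100 normalized counts on average. Genes outside that rule that are named beside small counts, such as Itgb3, Itga3 and Itgad, were chosen after their values were seen. Neighbours were genes that start within 250 kb of the start of Itgam or Itgax, and the 3 most similar genes were given for the 3 members with the widest range. The members and lists were chosen with earlier results of these data known. Alternatives were other normalizations, TMM references, filters and tools, a replicate block, the 6 libraries of a comparison alone and leaving out each library. FPKM were not used. Some listed genes are not reported here by name.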

Additional observations from a re-analysis of the deposited data

Results flagged for a closer look

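The LPS response of KO minus that of WT, tested as an interaction in edgeR's quasi-likelihood fit with Benjamini-Hochberg adjustment, passed an adjusted p of 0.05 for 9 of the 10 integrin genes (8 negative, beside 8.75% of all genes, and 1 positive, beside 8.7%), and this difference between genotypes is what singled them out. The log2 differences were -0.70 for Itgam, -0.62 for Itgax, -0.96 for Itgal, 0.75 for Itgae, -0.84 for Itga4, -0.36 for Itga5, -0.41 for Itgav, -0.53 for Itgb2 and -0.67 for Itgb7. Itgae was the gene whose response was more positive in CTCF-deficient cells, and the other 8 were more negative. With KOL 1 in place of KO 3 as the TMM reference, 4 of the 9 passed (Itgax, Itgal, Itgb7 and Itgae). On the TPM scale Itgav turned to 0.17, and the 2 negative calls were Itgax and Itgal, with Itgb7 at an adjusted p of 0.127 in limma. No test for single outlying samples was run in these groups of 3 libraries, but refits without each library in turn gave 3 to 8 negative interactions.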

How the results depend on the processing

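Among refits of a member's change other than leaving out 1 library, 441 kept direction and side of the 0.05 threshold, 48 lost the call, 18 gained one and 23 changed direction. Limma on log2 of TPM + 1 and TPM + 0.1 turned WTL against WT to -0.45 and -0.46 for Itgal, -0.25 and -0.33 for Itgae and -0.073 and -0.074 for Itgb1, KO against WT of Itga5 to -0.092 and -0.094, KOL against KO to -0.30 and -0.30 for Itga4 and -0.0866 and -0.0871 for Itgb1, and the interaction of Itgav to 0.17 and 0.20. It moved the number of members higher in KO from 4 to 1 and 1, lower in KO from 1 to 2 and 2, lower in KOL against WTL from 2 to 1 and 1, lower in KOL against KO from 0 to 4 and 5, and with a negative interaction from 8 to 2 and 2. The number higher in WTL against WT moved from 3 to 2 and 2, through Itga4. The TPM scale moves the median of all genes, as given with the results. DESeq2 and its size factors in edgeR gave -0.0070 and -0.0064 for Itga5 in KO against WT, and the size factors gave 5 negative interactions. Without a fold threshold, 2 members were lower in KO, 1 higher and 7 lower in KOL against WTL, and 4 higher and 5 lower in KOL against KO. Chosen after seeing the data, the transcript length correction gave 0.0091 for Itgb2 in WTL against WT, -0.017 for Itgam and -0.025 for Itga5 in KO against WT, and 2 members lower in KO, and the fit without WTL 1 and KOL 2 gave -0.023 for Itgal in WTL against WT, -0.096 for Itga4 and 1 member lower in KOL against KO. Also chosen then, KOL 1 as the TMM reference gave -0.011 for Itgam and -0.026 for Itga5 and 2 members lower in KO against WT, and 3 negative interactions, and keeping KO 3 as the reference without WT 1, WT 2 or WT 3 gave 1, 2 and 2 members lower in KO and 5, 4 and 3 negative interactions, with Itga5 in KO against WT at -0.010 without WT 3. The planned refits without a WT library changed that reference to KOL 1. Further, counts not divided by length gave -1.32 points for the Itgal share in KOL against KO and 0.0012 for the Itgam to Itgax ratio in WTL against WT. The cause was not tested. Leaving out each library in turn, counts ranged from 2 to 4 (higher in KO), 1 to 2 (lower in KO), 1 to 4 (lower in KOL against WTL), 0 to 1 (lower in KOL against KO) and 3 to 8 (negative interactions). The counts higher in WTL against WT and higher in KOL against KO each ranged from 2 to 3. Changes ranged from -0.31 to 0.062 (Itgam), -0.024 to 0.20 (Itgal) and -0.22 to 0.0026 (Itgb2) in WTL against WT, from -0.031 to 0.030 (Itgam, 0.033 with the reference kept), -0.042 to 0.029 (Itga5) and -0.024 to 0.096 (Itgb2, 0.103 with the reference kept) in KO against WT, from -0.47 to 0.036 (Itga4) in KOL against WTL, from -0.096 to 0.33 (Itga4) in KOL against KO, and from -0.13 to 0.016 (Itgb1) for the interaction. The Itgal share ranged from -0.16 to 1.14 points in KOL against KO, and in WTL against WT the Itgam share from -3.36 to 0.19, the Itgax share from -2.78 to 0.24 and the ratio from -0.066 to 0.039. Of 18 same-numbered pairs of groups, 1 had a correlation of deviations above 0.1, with r from -0.25 to 0.10, so pairing by replicate number was not seen. With 3 libraries in a group, and single libraries that stand apart, this cannot exclude pairing. With the replicate block as a term, 4 members had a negative interaction. Depths of 12769773 to 16586334 counts leave Itgae with 50 to 138 counts, the fewest of the members.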
